A study of Homo sapiens with 27 samples.

Results

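The transcription factor NF-kappaB and its feedback loop were followed here through 10 genes, chosen by name for their place in the pathway. Earlier results of these data were known when the genes were chosen. The 10 genes were the subunits NFKB1, NFKB2, RELA and RELB, the inhibitor NFKBIA and its nuclear relative NFKBIZ, the feedback enzymes TNFAIP3 and BIRC3, and the target genes SOD2 and ICAM1. All 10 were tested among the 13205 protein-coding genes that passed the filter on low counts in RNA-seq, and all but SOD2 were tested among 11689 genes in ribosome profiling. Ribosome profiling (Ribo-seq) counts the mRNA fragments that ribosomes shield from RNase, so a footprint count reflects both the amount of an mRNA and the ribosomes on it. The cells were IMR90, an established line of human lung fibroblasts of wild-type genotype, per the labels, in 5 states.

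Cycling cells were untreated and harvested below full confluency (2 RNA-seq and 3 Ribo-seq libraries), and quiescent cells were arrested by contact inhibition (3 and 3). Senescence was induced by 15 Gy of ionizing radiation with harvest after 10 days (3 and 3), or by 50 µM etoposide, a topoisomerase poison that breaks DNA, given 3 times over 10 days (3 and 3). A last group of cycling cells received 25 nM thapsigargin for 3 h (2 and 2), an inhibitor of the calcium pump of the endoplasmic reticulum that disturbs protein folding in that compartment. The labels do not say that replicates came from separate cultures, so the p-values measure the spread between these libraries, which may be technical.

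Library totals were 20635503 to 57119841 gene counts in RNA-seq and 1936976 to 19996104 in Ribo-seq, and the thapsigargin Ribo-seq libraries were the shallowest. The thapsigargin libraries differed from the rest in more than the drug: their medium is described without antibiotics, their RNA-seq had 1.35% to 1.40% of reads unmapped against 27.8% to 40.6% elsewhere, and their Ribo-seq was counted on a different list of genes. For this group, treatment and batch cannot be told apart. The labelled cell type was checked with 9 fibroblast genes. Their lowest value in any library was 19.6 CPM (counts scaled to a library size of 1e+06), for LUM in thapsigargin RNA-seq. Their summed footprints were at 3198 to 3565 CPM under thapsigargin, 25528 to 28382 in cycling cells and 9227 to 28519 in quiescent cells. The labelled states were checked with DDIT3, a stress gene, which reached 383 to 496 CPM in thapsigargin RNA-seq libraries against 39.7 to 41.5 in cycling ones. LMNB1, a nuclear lamin that is lost in senescence, was at 6.26 to 6.71 CPM after irradiation and 3.94 to 4.62 after etoposide, against 69.8 to 82.8 in cycling cells. LMNB1 mRNA was also below cycling cells in quiescence (30.8 to 42.2 CPM) and under thapsigargin (38.9 to 42.6). Quiescence was not uniform by MKI67, a proliferation marker: it was at 41.4 to 148 CPM in the quiescent RNA-seq libraries against 144 to 167 in cycling ones, so the highest quiescent library lay inside the cycling range, and 10.5 to 18.2 after irradiation. The part of cells still dividing in the quiescent differences was not tested. In libraries made from bulk lysates, fewer cells with an mRNA and less mRNA per cell cannot be told apart.

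NF-kappaB proteins are dimers that wait in the cytoplasm, bound to inhibitors of the IkappaB family. Signals from cytokine receptors or DNA damage activate the IkappaB kinases, the inhibitor is degraded, and the freed dimers switch on genes that carry the kappaB sequence. Many of the first genes to be switched on encode inhibitors of the pathway, which is why an NF-kappaB response is usually brief. In senescent fibroblasts the factor is known for driving the secreted inflammatory proteins.

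The kappaB sequence itself lies close to the start of most of the genes described here. RefSeq promoter windows (GRCh38.p14, 250 bases before a transcription start to 50 bases after it) were found for 9 of the 10 genes. The kappaB consensus, a 10-base motif searched on both strands, was present in windows of 6 of the 9: NFKB1, NFKB2, NFKBIA, NFKBIZ, TNFAIP3 and BIRC3. No window of RELA, SOD2 or ICAM1 held these letters. Of all 27303 genes with a window, 7.09% held a match (5.91% of 35114 windows). With a looser form of the consensus the figures were the same 6 of 9 against 13.25% of genes. A gene counted if any of its windows held a match, and the 9 genes had 1 to 4 windows each. These stretches of 30 bases are shown because they carry matches of genes whose levels are described next, written 5′ to 3′ on the gene's strand with the matches in capitals.
NFKB1, chr4:102501300-102501329 (+): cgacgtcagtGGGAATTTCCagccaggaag
NFKB2, start 2, chr10:102394462-102394491 (+): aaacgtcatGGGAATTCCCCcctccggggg
NFKB2, start 3, chr10:102395674-102395703 (+): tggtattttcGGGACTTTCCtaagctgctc
NFKBIZ, start 1, chr3:101827757-101827786 (+): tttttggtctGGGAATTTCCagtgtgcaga
TNFAIP3, chr6:137867188-137867217 (+): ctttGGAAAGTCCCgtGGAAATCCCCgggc
BIRC3, farther match, chr11:102317275-102317304 (+): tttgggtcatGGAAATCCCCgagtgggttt
BIRC3, nearer match, chr11:102317339-102317368 (+): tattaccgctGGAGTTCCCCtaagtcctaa

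NFKB1 and NFKBIZ share the same 10 bases, at positions -49 to -40 and -223 to -214 from their starts. The capitals of NFKB2 at its second annotated start hold a pair of overlapping matches, and TNFAIP3 has 2 matches 2 bases apart, at positions -67 to -58 and -55 to -46. The windows of NFKB1, NFKBIZ and TNFAIP3 lie within or beside other annotated genes (NFKB1-AS1, NXPE3 and WAKMAR2). The promoter of NFKBIA is printed as a whole because this gene is the classical feedback inhibitor. Its match lies on the other strand at positions -81 to -72, in the 250 bases before the start.
NFKBIA, chr14:35404750-35404999 (-): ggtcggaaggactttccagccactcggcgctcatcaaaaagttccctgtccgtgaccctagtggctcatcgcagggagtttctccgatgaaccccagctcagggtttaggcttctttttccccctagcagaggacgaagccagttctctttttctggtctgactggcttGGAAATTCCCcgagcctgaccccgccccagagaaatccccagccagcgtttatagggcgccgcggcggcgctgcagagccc

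**Figure D1:**
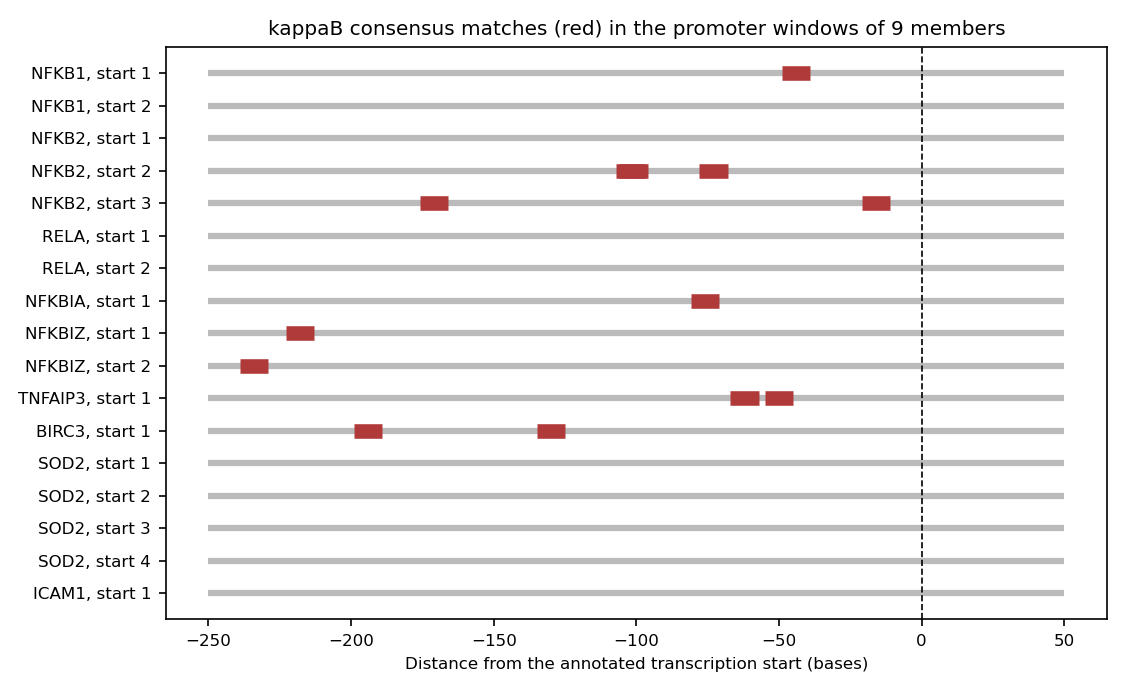
Positions of kappaB consensus matches (red) in each promoter window of 9 genes; the x axis is the distance in bases from the annotated transcription start (dashed line), and each grey bar is 1 window. NFKB1, NFKB2, NFKBIA and TNFAIP3 carry matches within 81 bases of a start, whereas RELA, SOD2 and ICAM1 have none.

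The subunits are described first. NFKB1 (chr4:102501359-102617302) encodes a precursor that is cut to the DNA-binding partner of RELA, and it was highest by far under thapsigargin. Its mRNA was at 46.6 and 46.6 CPM in the cycling libraries, 60.1, 62.0 and 64.4 in quiescence, 51.9, 54.7 and 59.5 after irradiation, 57.0, 54.9 and 58.3 after etoposide, and 161 and 149.8 under thapsigargin. Both thapsigargin libraries stood far above all others, and the 3 arrested states all lay above the cycling libraries without overlap. Against cycling cells the log2 fold change in RNA was 1.73 ± 0.12 (SE) under thapsigargin, a 3.33-fold difference (edgeR adjusted p = 6.37e-07). The differences after contact inhibition (0.41 ± 0.10, adjusted p = 0.0161) and etoposide (0.28 ± 0.10, adjusted p = 0.0494) also passed the threshold of 0.05. The difference after irradiation was 0.25 ± 0.10 (adjusted p = 0.0798).

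Footprints of NFKB1 were also highest under thapsigargin. They were at 60.8, 63.2 and 56.6 CPM in cycling, 89.9, 92.7 and 78.4 in quiescence, 76.2, 68.1 and 67.5 after irradiation, 74.2, 61.1 and 72.3 after etoposide, and 193 and 179.8 under thapsigargin. Quiescent cells stood above both senescent states here, and the etoposide libraries overlapped the cycling ones. The rise over cycling cells was 1.63 ± 0.12 under thapsigargin (adjusted p = 4.43e-07) and 0.53 ± 0.10 in quiescence (adjusted p = 0.00323). Etoposide-treated cells were lower than quiescent cells by log2 -0.33 ± 0.11 (adjusted p = 0.0257).

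NFKB2 (chr10:102394110-102402529) encodes the precursor processed in the noncanonical arm of the pathway. In RNA-seq it was at 16.2 and 18.6 CPM in cycling, 28.3, 29.6 and 20.0 in quiescence, 21.7, 21.1 and 18.9 after irradiation, 14.1, 17.5 and 26.6 after etoposide, and 31.3 and 59.6 under thapsigargin. The spread between replicates was wide, and the thapsigargin libraries, both above the cycling ones, lay far apart. The mRNA rise under thapsigargin was 1.39 ± 0.31 (adjusted p = 0.00636), and no other RNA comparison of NFKB2 passed the threshold. Footprints were tighter: 40.8, 33.4 and 39.8 CPM in cycling, 67.7, 69.4 and 74.6 in quiescence, 48.4, 46.9 and 52.3 after irradiation, 60.4, 48.3 and 55.1 after etoposide, and 135 and 106 under thapsigargin. The 4 other states lay above cycling cells without overlap, with quiescent cells above both senescent states. Footprints rose by 1.67 ± 0.14 under thapsigargin (adjusted p = 1.53e-06), 0.90 ± 0.12 in quiescence (adjusted p = 0.000455), 0.52 ± 0.13 after etoposide (adjusted p = 0.00534) and 0.38 ± 0.13 after irradiation (adjusted p = 0.0316).

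RELA (chr11:65653601-65663857) encodes the main activating subunit, whose activity is set largely by its release from inhibitors. Its mRNA was at 43.0 and 48.7 CPM in cycling, 60.9, 63.8 and 49.6 in quiescence, 61.5, 53.6 and 57.3 after irradiation, 41.0, 48.7 and 55.6 after etoposide, and 62.4 and 96.7 under thapsigargin. Etoposide-treated cells overlapped the cycling libraries, and the second thapsigargin library stood above all others. Of the 7 RNA comparisons of RELA, the one past the threshold was thapsigargin against cycling (0.80 ± 0.20, adjusted p = 0.0123). RELA footprints were at 98.8, 87.3 and 94.9 CPM in cycling, 110.0, 98.2 and 118 in quiescence, 112, 109 and 118 after irradiation, 86.4, 96.1 and 97.0 after etoposide, and 94.4 and 157 under thapsigargin. The lower thapsigargin library lay inside the cycling range. The footprint difference of 0.43 ± 0.17 under thapsigargin (adjusted p = 0.0496) rested on the other library, and was 0.03 without it.

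RELB (chr19:45001464-45038192) encodes the subunit that pairs with processed NFKB2. It was at 13.3 and 9.61 CPM in cycling RNA-seq, 27.4, 24.6 and 17.3 in quiescence, 15.9, 18.0 and 14.2 after irradiation, 12.0, 14.2 and 19.5 after etoposide, and 44.6 and 56.7 under thapsigargin. Quiescent and thapsigargin-treated cells stood above the cycling libraries, and etoposide-treated cells overlapped them. RELB mRNA rose 4.40-fold under thapsigargin (log2 2.14 ± 0.27, adjusted p = 0.000104) and 2.01-fold in quiescence (1.01 ± 0.25, adjusted p = 0.0148). Footprints gave 12.4, 7.08 and 8.45 CPM in cycling, 19.7, 15.1 and 19.5 in quiescence, 13.2, 18.5 and 10.3 after irradiation, 12.1, 10.6 and 13.4 after etoposide, and 21.3 and 57.5 under thapsigargin. The last pair differed widely. The footprint rise of 2.09 ± 0.36 under thapsigargin (adjusted p = 0.000472) fell to 1.22 without the second library and stayed past the threshold.

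**Figure D2:**
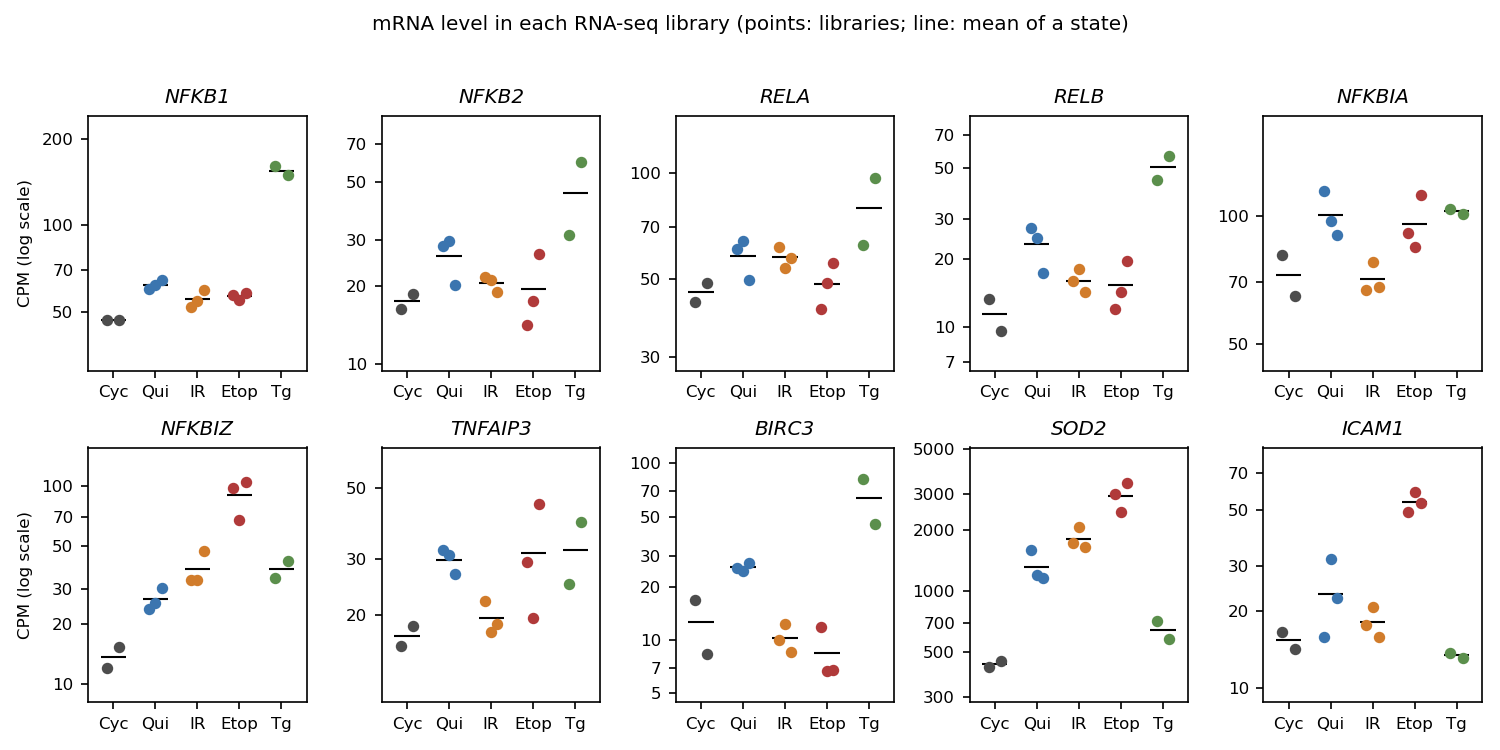
RNA-seq level of the 10 genes (CPM, log scale) in the cycling (Cyc), quiescent (Qui), irradiated (IR), etoposide (Etop) and thapsigargin (Tg) states; each point is 1 library and each line the mean of a state. NFKB1, RELB and BIRC3 are highest under thapsigargin, while NFKBIZ, SOD2 and ICAM1 are highest after etoposide.

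Of the inhibitors, NFKBIA (chr14:35401513-35404749) encodes IkappaB-alpha, which the factor induces and which then returns it to the cytoplasm. In RNA-seq it was at 80.8 and 64.8 CPM in cycling, 115, 97.3 and 90.2 in quiescence, 67.1, 77.9 and 68.1 after irradiation, 91.4, 84.6 and 112 after etoposide, and 104 and 101 under thapsigargin. Irradiated cells overlapped cycling cells, and each other state lay above them. The RNA differences were small. Thapsigargin gave 0.49 ± 0.16 over cycling (adjusted p = 0.0425). Irradiated cells were lower than quiescent cells by log2 -0.50 ± 0.13 (adjusted p = 0.0197), and etoposide-treated cells were higher than irradiated cells by 0.44 ± 0.13 (adjusted p = 0.0327). Footprints were at 86.6, 79.7 and 77.0 CPM in cycling, 124, 122 and 135 in quiescence, 84.3, 90.8 and 117 after irradiation, 103, 98.6 and 133 after etoposide, and 70.9 and 114 under thapsigargin. They rose in quiescence by 0.65 ± 0.16 (adjusted p = 0.0125) and after etoposide by 0.46 ± 0.17 (adjusted p = 0.0457). Thapsigargin footprints lay on both sides of the cycling range (0.19 ± 0.20, adjusted p = 0.441).

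NFKBIZ (chr3:101827990-101861022) encodes IkappaB-zeta, a nuclear IkappaB that acts with NF-kappaB at a set of secondary target genes. Its mRNA was at 12.1 and 15.4 CPM in cycling, 24.0, 25.7 and 30.4 in quiescence, 33.4, 33.5 and 47.1 after irradiation, 97.8, 67.3 and 104 after etoposide, and 34.3 and 41.9 under thapsigargin. The order cycling, quiescent, irradiated, etoposide held without overlap, and thapsigargin-treated cells overlapped irradiated cells. Against cycling cells, RNA rose 6.56-fold after etoposide (log2 2.71 ± 0.24, adjusted p = 1.45e-06), 2.77-fold after irradiation (1.47 ± 0.23, adjusted p = 0.00023), 2.78-fold under thapsigargin (1.48 ± 0.24, adjusted p = 0.000696) and 1.95-fold in quiescence (0.96 ± 0.22, adjusted p = 0.0107). Neighbours in the order, irradiated and quiescent cells, differed by 0.51 ± 0.19 in RNA (adjusted p = 0.0799).

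Footprints of NFKBIZ kept that order of states. They were at 9.24, 16.2 and 11.5 CPM in cycling, 30.1, 25.8 and 31.2 in quiescence, 44.9, 53.4 and 58.9 after irradiation, 152, 111 and 157 after etoposide, and 34.4 and 26.1 under thapsigargin. The 4 states other than thapsigargin again did not overlap. The footprint rise over cycling cells was 11.2-fold after etoposide (3.49 ± 0.21, adjusted p = 2.75e-08) and 4.19-fold after irradiation (2.07 ± 0.21, adjusted p = 5.56e-06). Quiescence gave 1.22 ± 0.20 (adjusted p = 0.00114) and thapsigargin 1.28 ± 0.26 (adjusted p = 0.00144). Irradiated cells exceeded quiescent cells by 0.84 ± 0.20 (adjusted p = 0.0107).

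The feedback enzymes differed from each other. TNFAIP3 (chr6:137866349-137883312) encodes a ubiquitin-editing enzyme that shuts off signalling from cytokine receptors to the IkappaB kinases. TNFAIP3 mRNA was at 16.0 and 18.5 CPM in cycling, 32.0, 30.8 and 26.8 in quiescence, 22.2, 17.8 and 18.8 after irradiation, 29.4, 19.7 and 44.7 after etoposide, and 25.0 and 39.2 under thapsigargin. Etoposide libraries were spread widely, and irradiated cells overlapped cycling ones. RNA rose after etoposide by 0.86 ± 0.28 (adjusted p = 0.0321) and under thapsigargin by 0.90 ± 0.30 (adjusted p = 0.0462), and the quiescent value of 0.79 ± 0.28 did not pass (adjusted p = 0.0788). Footprints were at 8.10, 9.82 and 6.74 CPM in cycling, 15.7, 16.2 and 19.4 in quiescence, 10.4, 9.46 and 12.9 after irradiation, 22.3, 13.9 and 25.2 after etoposide, and 18.5 and 17.8 under thapsigargin. These rose by 1.30 ± 0.23 after etoposide (adjusted p = 0.000611), 1.13 ± 0.29 under thapsigargin (adjusted p = 0.00619) and 1.05 ± 0.22 in quiescence (adjusted p = 0.00471). Irradiation gave 0.40 ± 0.25 (adjusted p = 0.216).

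BIRC3 (chr11:102317484-102339403) encodes a ubiquitin ligase of the inhibitor-of-apoptosis family that takes part in signalling from tumour necrosis factor receptors and restrains the noncanonical arm. Its mRNA was at 16.9 and 8.36 CPM in cycling, 25.6, 24.5 and 27.2 in quiescence, 9.98, 12.3 and 8.57 after irradiation, 11.9, 6.67 and 6.80 after etoposide, and 82.0 and 45.6 under thapsigargin. Both senescent states overlapped cycling cells and lay below quiescent cells. RNA was 5.01-fold higher under thapsigargin than in cycling cells (2.32 ± 0.36, adjusted p = 0.000542). That log2 value was 2.93 without cycling library 1, the higher of the cycling pair. Against quiescent cells it was 2.50-fold lower after irradiation (-1.32 ± 0.29, adjusted p = 0.00692) and 3.05-fold lower after etoposide (-1.61 ± 0.29, adjusted p = 0.000735).

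Footprints of BIRC3 were few, from 2 to 117 reads a library. In CPM they were at 1.97, 2.17 and 0.855 in cycling, 5.55, 5.61 and 2.87 in quiescence, 0.528, 2.27 and 0.858 after irradiation, 1.05, 1.09 and 0.348 after etoposide, and 21.3 and 21.4 under thapsigargin. The thapsigargin rise was 12.5-fold (3.64 ± 0.47, adjusted p = 5.22e-05). Quiescent cells were above cycling cells by 1.45 ± 0.41 (adjusted p = 0.0213) and 5.51-fold above etoposide-treated cells (-2.46 ± 0.50 for etoposide against quiescent, adjusted p = 0.00201).

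**Figure D3:**
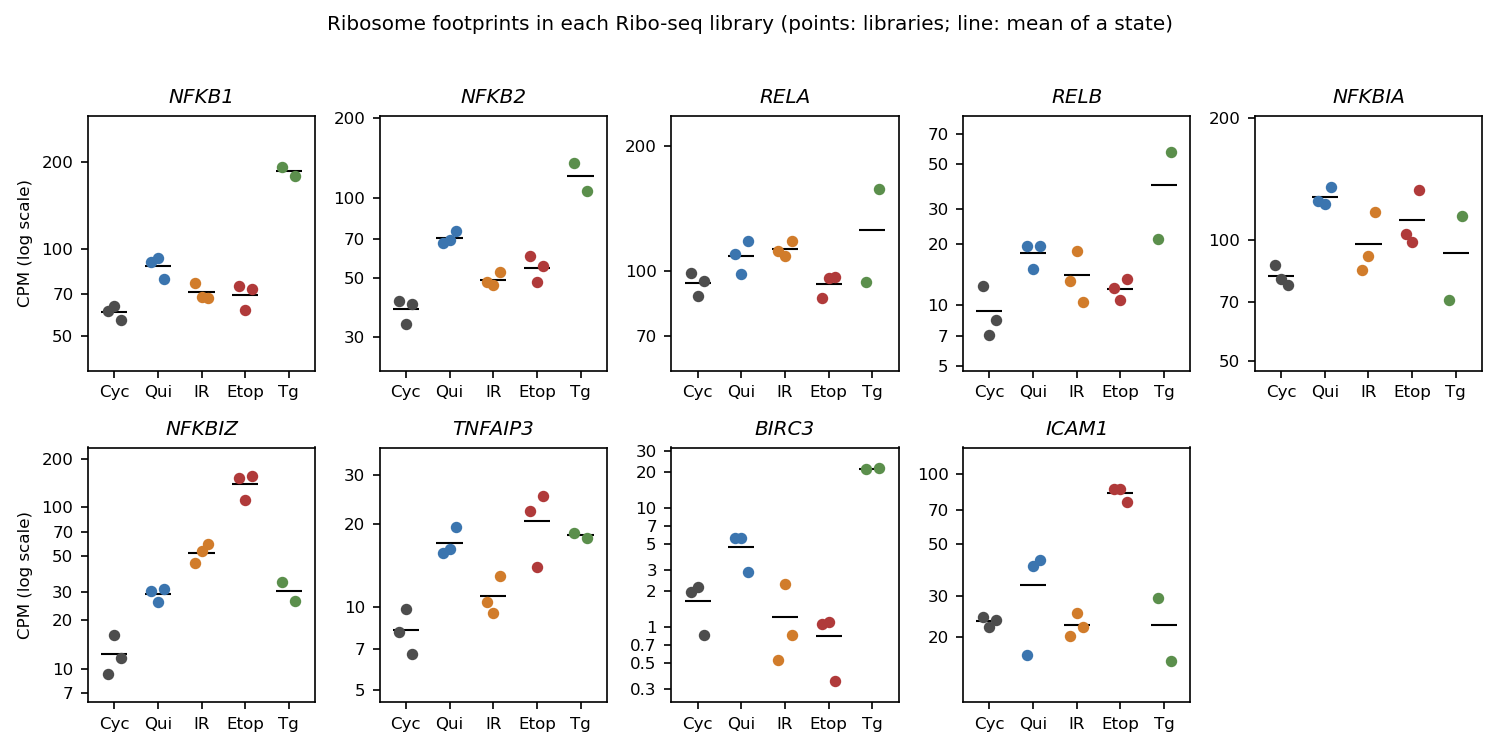
Ribosome footprints of 9 of the genes (CPM, log scale) in the same states, with 1 point a library and a line at the mean of each state. BIRC3 footprints are near or below 5.61 CPM outside thapsigargin, where both libraries exceed 21, and NFKBIZ and ICAM1 are highest after etoposide.

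Among the targets, SOD2 (chr6:159669069-159762281) encodes the manganese superoxide dismutase of mitochondria, which removes superoxide. RNA-seq gave 425 and 455 CPM in cycling, 1586, 1205 and 1152 in quiescence, 1728, 2061 and 1646 after irradiation, 3009.8, 2439.8 and 3384 after etoposide, and 715 and 579 under thapsigargin. The states did not overlap, and their order was cycling, thapsigargin, quiescent, irradiated and etoposide. SOD2 mRNA rose over cycling cells 6.69-fold after etoposide (2.74 ± 0.19, adjusted p = 1.94e-07), 4.12-fold after irradiation (2.04 ± 0.19, adjusted p = 2.93e-06), 2.99-fold in quiescence (1.58 ± 0.18, adjusted p = 0.000338) and 1.47-fold under thapsigargin (0.56 ± 0.19, adjusted p = 0.0478). Irradiated and quiescent cells, neighbours in that order, differed by 0.46 ± 0.16 (adjusted p = 0.0536). Footprints of SOD2 were read under thapsigargin, at 937 and 961 counts (511 and 502 CPM), and were not analysed here in the other states, whose Ribo-seq libraries use a different gene list.

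ICAM1 (chr19:10271120-10286615) encodes an adhesion molecule that leukocytes bind. ICAM1 mRNA was at 16.6 and 14.2 CPM in cycling, 15.8, 32.1 and 22.5 in quiescence, 17.6, 20.8 and 15.8 after irradiation, 49.3, 58.7 and 53.2 after etoposide, and 13.7 and 13.1 under thapsigargin. The etoposide libraries stood alone above all others, and quiescent libraries were spread widely. Footprints had the same shape: 24.3, 22.1 and 23.6 CPM in cycling, 16.7, 40.4 and 42.8 in quiescence, 20.2, 25.4 and 22.0 after irradiation, 86.0, 86.6 and 76.0 after etoposide, and 29.5 and 15.7 under thapsigargin. After etoposide ICAM1 rose over cycling cells 3.48-fold in RNA (1.80 ± 0.24, adjusted p = 7.75e-05) and 3.55-fold in footprints (1.83 ± 0.28, adjusted p = 0.000217). Irradiation gave 0.23 ± 0.23 in RNA (adjusted p = 0.483) and -0.06 ± 0.30 in footprints (adjusted p = 0.892). Some ICAM1 reads overlap a gene on the other strand: counts without regard to strand were lower than the stranded ones, and with them no call on ICAM1 changed.

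Quiescence without damage was compared with proliferation first. NFKB1, RELB, NFKBIZ and SOD2 were higher in quiescent than in cycling RNA, by 1.33-fold to 2.99-fold, and in footprints the subunits NFKB1, NFKB2 and RELB, the inhibitors NFKBIA and NFKBIZ, and the feedback enzymes TNFAIP3 and BIRC3 were higher. That made 4 of 10 genes in RNA, where the share over all tested genes was 15.6% (5.20% higher and 10.4% lower), and 7 of 9 in footprints, where 21.7% were called (7.12% higher and 14.6% lower). No member was lower in either assay. The median log2 fold change of the members was 0.70 in RNA (0.02 over all genes) and 0.90 in footprints (0.02 over all genes). RNA values of BIRC3 (1.02 ± 0.33, adjusted p = 0.0537) and NFKBIA (0.47 ± 0.15, adjusted p = 0.0533) just missed the threshold. The SOD2 call in RNA and those of NFKB1, NFKB2, NFKBIA, NFKBIZ and TNFAIP3 in footprints held under every alternative tried. In RNA the call of NFKB1 was lost without cycling library 1 or 2, and that of RELB without cycling library 2. Both were also lost in the fit of only the groups compared. That of NFKBIZ was lost without cycling library 1. In footprints the calls of RELB and BIRC3 were lost without single libraries (adjusted p up to 0.131), and that of BIRC3 also with only the groups compared. Same-numbered cycling and quiescent Ribo-seq libraries deviated together, and with the replicate block the RELB footprint call was lost (0.97, adjusted p = 0.054).

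Among the other genes of the pathway in quiescence, 4 of 12 further negative regulators were higher in RNA and 0 lower, led by USP18 (0.67 ± 0.18) and TNIP1 (0.65 ± 0.19). Of 25 upstream receptors, adaptors and kinases tested, 2 were higher and 2 lower in RNA, with a median of 0.18, a share close to that over all genes. The receptors TNFRSF1A (-0.84 ± 0.20) and LTBR (-0.69 ± 0.13) were the lower ones, and the kinase IKBKE (0.50 ± 0.15) and the adaptor TRAF3 (0.32 ± 0.10) the higher ones. Among 21 further inducible targets, 3 were higher and 1 lower, with a median of 0.35. VCAM1, an adhesion molecule, rose by 1.21 ± 0.29 and the chemokine CCL2 by 0.61 ± 0.19. The lower one was CCL20, with 0 counts in every quiescent library and 0 and 23 in the cycling libraries, so that call rests on a single cycling library.

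In irradiation-induced senescence NFKBIZ and SOD2 rose over cycling cells in RNA, and NFKBIZ and NFKB2 in footprints. These were 2 of 10 genes in RNA against 34.9% of all genes (16.1% higher and 18.8% lower), and 2 of 9 in footprints against 39.8% (17.3% higher and 22.5% lower). Each of these calls was a rise, a share close to that of higher genes over the whole table. The medians of the members were 0.24 in RNA and 0.27 in footprints. RELA, RELB, NFKB1, NFKBIA, TNFAIP3, BIRC3 and ICAM1 did not pass the threshold in either assay. In fits of only the groups compared, 4 members passed in RNA and 6 in footprints. Calls over all genes also rose in those fits, from 4610 to 6723 in RNA and from 4655 to 6212 in footprints. The NFKBIZ and SOD2 calls held under every alternative, and the footprint call of NFKB2 was lost when cycling library 2 or any irradiated library was left out (adjusted p up to 0.095).

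In the same comparison 13 of 21 further inducible targets were called in RNA, 8 higher and 5 lower, with a median of -0.21. The largest rises were BCL2A1, a survival gene of the BCL2 family (2.50 ± 0.70, from 6 reads in the cycling libraries to 59), and VCAM1 (2.22 ± 0.31). The largest falls were CCL20, which had 1 read in all irradiated libraries together, and the cytokine IL1B (-1.24 ± 0.38). Footprints split likewise, with 5 higher and 6 lower of 19. Upstream, 7 of 25 genes were higher and 2 lower in RNA. The interleukin 1 receptor IL1R1 (0.90 ± 0.24) and the adaptor TRADD (0.70 ± 0.21) rose most, and TNFRSF1A (-0.99 ± 0.20) and LTBR (-0.61 ± 0.13) fell. Of 12 further negative regulators 5 were higher in RNA and 0 lower, led by TNIP1 (0.80 ± 0.19) and TAX1BP1 (0.72 ± 0.14).

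Etoposide-induced senescence had its largest rises in the targets and in NFKBIZ. SOD2, NFKBIZ and ICAM1 rose in RNA by 6.69-fold, 6.56-fold and 3.48-fold over cycling cells, TNFAIP3 by 1.81-fold and NFKB1 by 1.22-fold. In footprints NFKBIZ, ICAM1, TNFAIP3, NFKB2 and NFKBIA rose. These were 5 of 10 genes in RNA, against 34.6% of all genes called (16.8% higher and 17.8% lower), and 5 of 9 in footprints, against 34.2% (16.5% higher and 17.6% lower). The medians were 0.40 in RNA and 0.46 in footprints. RELA and RELB did not pass in either assay (RELA RNA 0.08 ± 0.19, adjusted p = 0.773). The calls of SOD2, NFKBIZ and ICAM1, and of TNFAIP3 and NFKB2 in footprints, held under every alternative. The RNA calls of NFKB1 and TNFAIP3 were lost without either cycling library or with the replicate block. That of NFKB1 was also lost on leaving out any etoposide library, with no filter on low counts and with all biotypes. That of TNFAIP3 was also lost with only the groups compared and without etoposide library 3 (log2 0.51). The footprint call of NFKBIA was lost in 7 of 13 alternatives (adjusted p up to 0.214).

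The wider set of inducible targets moved with etoposide. In RNA 15 of 21 were higher than in cycling cells and 0 lower, with a median of 1.72 (0.00 over all genes), and in footprints 13 of 19 were higher and 0 lower. The neutrophil chemokines CXCL1 (6.26 ± 0.68) and CXCL8 (4.91 ± 0.76) rose most in RNA. In footprints they rose by 6.43 ± 0.71 and 4.99 ± 0.70. Of 25 upstream genes 3 were higher and 1 lower in RNA, with IKBKG, the regulatory subunit of the IkappaB kinase, at 0.72 ± 0.17 and TRAF5 at -0.95 ± 0.20. Among 12 further negative regulators 5 were higher and 1 lower, led by the RNase ZC3H12A (1.41 ± 0.25) and the ubiquitin-binding TNIP1 (0.92 ± 0.19), with USP18 lower (-0.58 ± 0.18). NFKBIB rose as the single called gene among 6 further subunits and IkappaB proteins (0.68 ± 0.18).

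Markers of immune cells were slightly above other states in the etoposide libraries. The summed level of 6 such genes was 1.47 to 1.83 CPM in etoposide RNA-seq against 0 to 0.615 in all other states, with PTPRC at 0.702 to 0.738 and CD14 at 0.245 to 0.513. In Ribo-seq the sum was 1.93 to 3.43 CPM after etoposide and at most 1.14 elsewhere, with CD14 at 1.40 to 2.34. CD3E was at 0 in every RNA-seq library of the other states and at most 0.054 CPM after etoposide. The summed endothelial and epithelial markers were below 3 CPM in all states. The part of such cells in the etoposide differences was not tested.

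**Figure D4:**
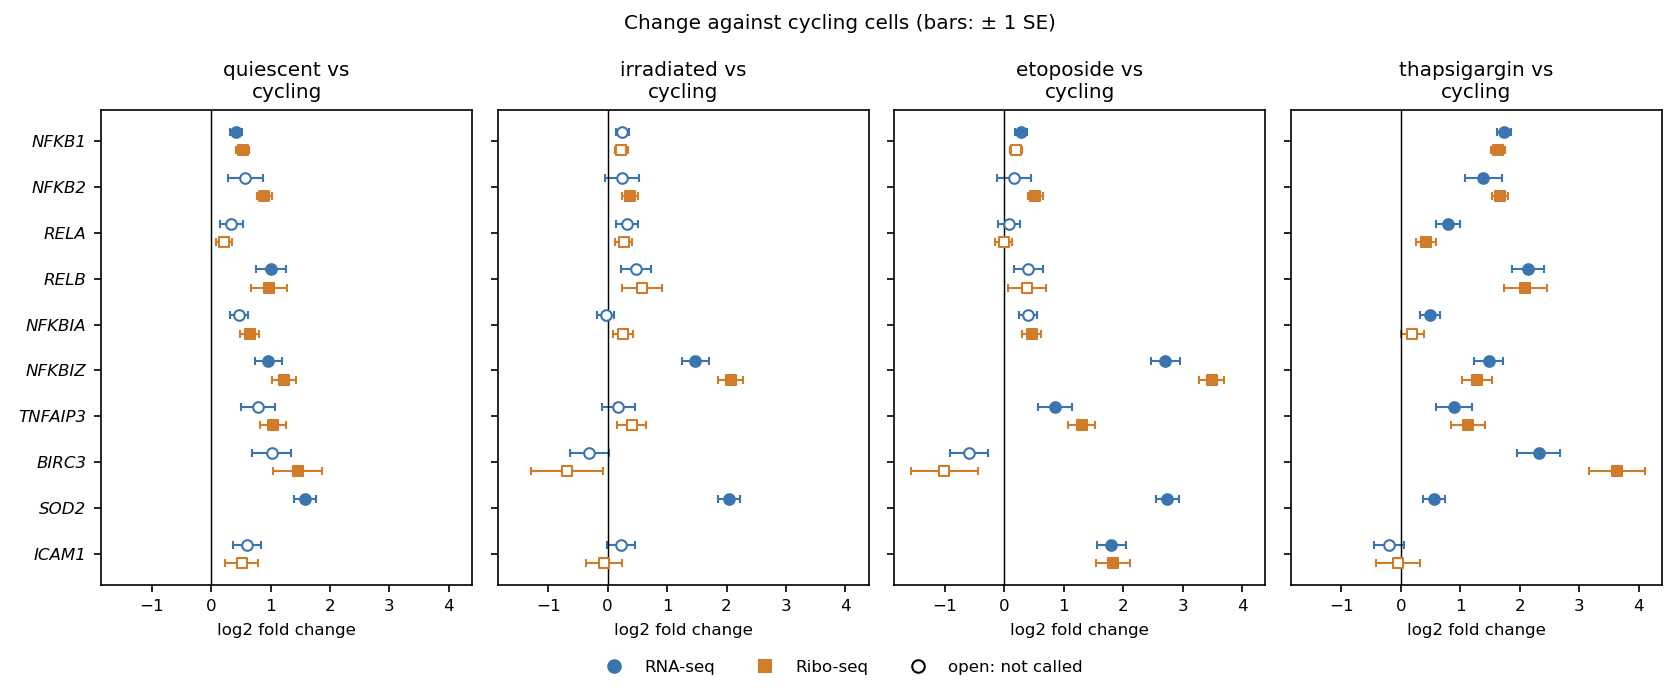
Log2 fold change of each gene against cycling cells in RNA-seq (circles) and Ribo-seq (squares), 1 panel a state, with bars of ± 1 SE; filled symbols passed an adjusted p of 0.05 by edgeR and open ones did not. BIRC3 and RELB have the largest rises under thapsigargin, where NFKBIZ is also higher in both assays. After etoposide the largest rises are in NFKBIZ, SOD2 and ICAM1.

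Acute stress with thapsigargin called more members in RNA than any other comparison, while in footprints it called as many as quiescence. Within 3 h BIRC3, RELB, NFKB1, NFKBIZ, NFKB2, TNFAIP3, RELA, SOD2 and NFKBIA were higher in RNA than in cycling cells, from 5.01-fold for BIRC3 to 1.41-fold for NFKBIA. ICAM1 was the exception (-0.20 ± 0.25, adjusted p = 0.604). In RNA 9 of 10 genes were called, all higher, against 24.6% of all genes (11.8% higher and 12.8% lower). In footprints 7 of 9 were called, all higher, against 44.4% (20.0% higher and 24.4% lower). The member medians were 1.14 in RNA and 1.28 in footprints, beside -0.03 and -0.11 over all genes. Calls of NFKB1, RELB, NFKBIZ and BIRC3 held in both assays under every alternative, as did NFKB2 and TNFAIP3 in footprints. In RNA those of NFKBIA, TNFAIP3 and SOD2 were lost without cycling library 1 or 2, without at least 1 of the thapsigargin libraries and with the replicate block (adjusted p up to 0.299), and those of NFKB2 (0.87) and RELA (0.46) without thapsigargin library 2 or without cycling library 1. With only the groups compared, the RNA calls of RELA, NFKBIA, TNFAIP3 and SOD2 were lost as well. The footprint call of RELA was lost in 9 of 12 alternatives.

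Other targets divided under thapsigargin. In RNA 7 of 21 were higher and 4 lower, with a median of 0.21. PTGS2, the inducible cyclooxygenase (3.29 ± 0.64), and CXCL8 (3.29 ± 0.73) rose most, and IL1B (-4.15 ± 0.51) and VCAM1 (-3.98 ± 0.37) fell most. BIRC2, the neighbour and relative of BIRC3, rose by 2.00 ± 0.22 in RNA and 1.81 ± 0.15 in footprints, the largest rise among the upstream genes, while the receptor IL1R1 fell (-1.71 ± 0.26 in RNA). NFKBIE rose by 1.51 ± 0.21 and NFKBIB by 0.97 ± 0.20 in RNA, and BCL3 fell (-1.58 ± 0.41). Of 12 further negative regulators 4 were higher in RNA and 0 lower, led by OTUD7B (0.90 ± 0.15) and CYLD (0.77 ± 0.12). In footprints 7 of 19 targets were higher and 5 lower. One of the lower ones, GCH1, had 0 footprints in either thapsigargin library, as had NFKBID, TLR3 and ITCH among the other lists. For ITCH, a ubiquitin ligase, every other Ribo-seq library had 317 to 2489 footprints of it, and its mRNA was at 71.5 and 108 CPM under thapsigargin. The thapsigargin Ribo-seq libraries were counted on a different gene list, and whether that bears on these zeros was not tested. GCH1 was at least 1.12-fold lower (against 3 counts over the group), while its mRNA rose by 2.65 ± 0.26.

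The arrested states were also compared with each other. Comparisons with cycling cells share the cycling libraries, so their values stand side by side above and were not correlated. Irradiated cells had less BIRC3 and NFKBIA mRNA than quiescent cells, 2 of 10 genes against 18.8% of all genes (9.03% higher and 9.72% lower). In footprints NFKBIZ was higher (0.84 ± 0.20) and NFKB2 (-0.52 ± 0.13) and BIRC3 (-2.13 ± 0.54) were lower, 3 of 9 genes against 14.6% (6.93% higher and 7.64% lower). The RNA call of BIRC3 held under every alternative. The NFKBIA call was lost without irradiated library 1 or 3 or quiescent library 1 (adjusted p up to 0.087), and each of the 3 footprint calls was lost without at least 1 of the irradiated libraries (up to 0.135). Without irradiated library 2 the BIRC3 footprint value was -2.80.

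Etoposide-treated cells, set against quiescent cells, had more NFKBIZ (1.75 ± 0.19), ICAM1 (1.20 ± 0.20) and SOD2 (1.16 ± 0.16) mRNA and less BIRC3 (-1.61 ± 0.29) and RELB (-0.60 ± 0.21). That made 5 of 10 genes against 41.8% of all genes (21.1% higher and 20.7% lower). In footprints NFKBIZ (2.27 ± 0.19) and ICAM1 (1.31 ± 0.27) were higher and BIRC3, NFKB2 (-0.37 ± 0.12) and NFKB1 lower, 5 of 9 against 35.5% (19.3% higher and 16.2% lower). The subunit calls were each in a single assay, RELB in RNA and NFKB1 and NFKB2 in footprints. RELA passed in neither assay. In RNA, 3 of 10 higher and 2 of 10 lower were shares near those over all genes. The RELB call in RNA (adjusted p = 0.0369) was lost in 6 of 13 alternatives. These were the replicate block, only the groups compared, and leaving out quiescent library 1 or 2 or etoposide library 1 or 2. Those of NFKB1 and NFKB2 in footprints were lost without single libraries (up to 0.143), while the others held under every alternative.

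Between the senescent states the called differences were in targets, inhibitors and a feedback enzyme, and in no subunit. After etoposide ICAM1 (1.57 ± 0.21, adjusted p = 0.000271), NFKBIZ (1.24 ± 0.19, adjusted p = 0.000597), SOD2 (0.70 ± 0.16, adjusted p = 0.00568) and NFKBIA were higher in RNA than after irradiation, 4 of 10 genes against 22.6% of all genes (12.9% higher and 9.68% lower). In footprints ICAM1 (1.89 ± 0.30, adjusted p = 0.000996), NFKBIZ (1.42 ± 0.20, adjusted p = 0.000469) and TNFAIP3 (0.90 ± 0.24, adjusted p = 0.0168) were higher, 3 of 9 against 21.7% (13.9% higher and 7.78% lower). For NFKB1 the difference was 0.03 ± 0.09 in RNA and for RELB -0.07 ± 0.21, neither past the threshold (adjusted p = 0.830 and 0.851). NFKB2 was at -0.08 ± 0.25 in RNA and 0.15 ± 0.13 in footprints. RELA was at -0.25 ± 0.17 in RNA and -0.28 ± 0.15 in footprints (edgeR adjusted p = 0.319 and 0.215). The RELA footprints were lower after etoposide without overlap. Of 21 further targets 16 were higher after etoposide in RNA and 0 lower, with a median of 1.35. CXCL8 (5.53 ± 0.65) and CCL20 led them, CCL20 with 1 read in the irradiated libraries against 118 in the etoposide libraries. Calls of ICAM1 and NFKBIZ in both assays and of SOD2 held under every alternative, and those of NFKBIA in RNA and TNFAIP3 in footprints were lost without single libraries of either state (adjusted p up to 0.147).

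**Figure D5:**
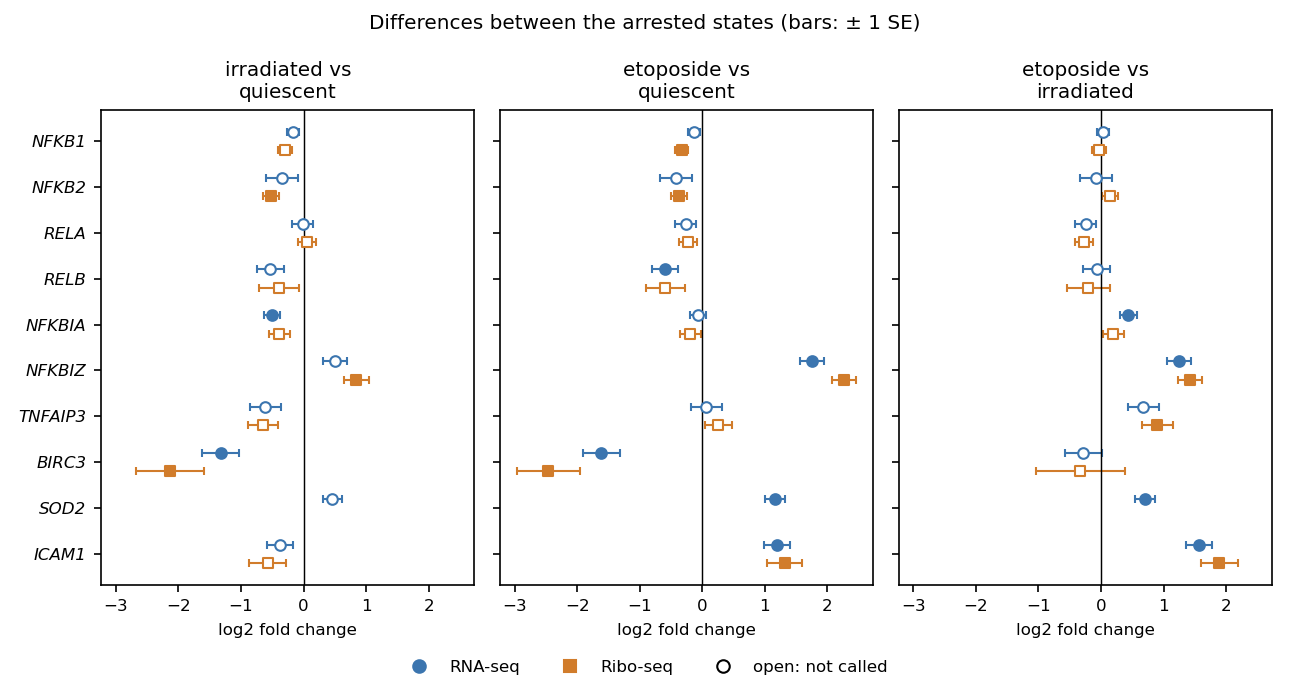
Log2 differences between the arrested states for each gene in RNA-seq (circles) and Ribo-seq (squares), with bars of ± 1 SE; filled symbols passed an adjusted p of 0.05 by edgeR. ICAM1, NFKBIZ and SOD2 lie to the right after etoposide, and BIRC3 lies to the left in both senescent states against quiescent cells.

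Translational efficiency, the ratio of footprints to mRNA, was tested as the interaction of assay and state over all 27 libraries. By edgeR 0 of 9 members passed in each of the 5 comparisons, and by DESeq2 likewise 0. Over all genes 0% were called in quiescent against cycling, 0.0172% in irradiated against cycling, 0.0430% in etoposide against cycling (0.0258% higher and 0.0172% lower), 20.8% in thapsigargin against cycling (9.21% higher and 11.6% lower) and 0% in etoposide against irradiated cells. Before adjustment 1 member passed 0.05 after etoposide, NFKBIZ (0.77 ± 0.31), and 1 under thapsigargin, BIRC3 (1.34 ± 0.59, edgeR adjusted p = 0.111), and 0 in the other comparisons. NFKBIZ footprints rose 11.2-fold where its mRNA rose 6.56-fold after etoposide, and the difference had an adjusted p = 0.9997 (0.48 to 1.00 over the alternatives). The test had little power in a simulation of the etoposide comparison. It found 32.5% of the genes changed 2-fold, against 74.5% in RNA-seq and 80.5% in Ribo-seq. The simulation gave all genes and libraries the same spread, so it does not give the power in the real libraries. The other comparisons were not simulated. Leaving out thapsigargin Ribo-seq library 2 gave calls for RELA (-0.85) and NFKBIA (-0.76) under thapsigargin, and leaving out thapsigargin RNA-seq library 1 gave one for BIRC3.

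The genes closest in pattern to each member were sought by Pearson's r of log2 CPM over the 13 RNA-seq libraries. Only tested genes outside the member list with a mean of at least 5 CPM were searched. These correlations are descriptions, since the libraries fall into 5 states and share their states' differences. NFKB1 was closest to UTP25 (r = 0.99), NFKB2 to CSK (0.98), RELA to PRKACA (0.96), RELB to CNIH3 (0.97) and BIRC3 to TRNP1 (0.96). NFKBIZ was closest to TCIM (0.95), NAMPT (0.95) and SLC16A6 (0.94), SOD2 to AMPD3 (0.96), and ICAM1 to CD82 (0.95), ZNF79 (0.93) and TNFSF15 (0.92). NFKBIA and TNFAIP3 had no such close partner, with highest values of 0.79 (NSUN4) and 0.77 (ZNF513).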

How the data were processed

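RNA-seq and Ribo-seq libraries were deposited as raw counts of reads per gene in the layout of STAR. The authors' tools, per the submitters' processing notes, were bcl2fastq, STAR 2.7.10b and DESeq2 1.36.0, with genome build hg38; the annotation is not given in the sources used here. The reverse-strand column was read for RNA-seq (a stranded kit, per the labels' protocols) and the forward-strand column for Ribo-seq. Not used were unmapped reads (1.35% to 40.6% of reads), reads mapping to several places (9.43% to 66.9%) and reads outside genes (0.777% to 3.96%). Symbols came from a gene name table and biotypes, coordinates and promoter sequences from RefSeq (GRCh38.p14). RNA-seq lists 62703 gene IDs, the Ribo-seq of 4 states 60664, and 60534 are shared by all libraries. The ID named SOD2 is not among the shared ones.

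Protein-coding genes that passed edgeR's filterByExpr (minimum count 10) entered edgeR 4.0.16 (R 4.3.3): TMM scaling, robust quasi-likelihood F test, all 5 states in each fit, two-sided p-values adjusted by Benjamini-Hochberg over 13205 (RNA), 11689 (Ribo) or 11639 (translational efficiency) genes. CPM are counts scaled to a library of 1e+06 after TMM, and errors of log2 fold changes are SE. Scaling sets the typical gene to about 0. The fits were tested on simulated data. Replicate numbers in the labels were checked for pairing by the correlation of deviations from the group means: all 3 same-numbered pairs were over 0.1 for cycling with quiescent Ribo-seq libraries (0.157, 0.273 and 0.265), and in no other comparison within an assay that has 3 pairs. No deposited library repeated another within sampling noise. Alternatives were DESeq2 1.42.0, RLE scaling, no filter on low counts beyond a total of 1, all biotypes, unstranded counts, a replicate block, fits of only the groups compared, and leaving out each library. The members and the lists of other pathway genes were chosen with earlier results of these data known. All members were named, and of each other list the 2 largest rises and 2 largest falls among called genes of the comparisons described. TLR4 and CSF2 did not pass the filter in either assay, nor CD40, CCL20 and CXCL2 in Ribo-seq.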

Additional observations from a re-analysis of the deposited data

Results flagged for a closer look

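The following values differed between the senescent states by a direct test of etoposide-treated against irradiated cells, both of which were also compared with the same cycling libraries. In RNA-seq the log2 differences were 1.57 for ICAM1, 1.24 for NFKBIZ, 0.70 for SOD2 and 0.44 for NFKBIA. In Ribo-seq they were 1.89 for ICAM1, 1.42 for NFKBIZ and 0.90 for TNFAIP3. All were higher after etoposide. Immune-cell markers, summed, were also higher in the etoposide libraries (1.47 to 1.83 CPM in RNA-seq), and their part in these differences was not tested.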

How the results depend on the processing

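Of the 63 calls made on members in RNA-seq and Ribo-seq, 18 of 31 in RNA and 21 of 32 in footprints held under every alternative, and none changed sign. DESeq2 and unstranded counts lost 0 of the 63, RLE scaling 1, genes of all biotypes 3, no filter on low counts 4, the replicate block 8 and fits of only the groups compared 10. Leaving out single libraries lost 74 of 342. The causes were not tested, beyond the fewer libraries in those fits.

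The number of members called in RNA moved as follows. Quiescent against cycling went from 4 to 7 with DESeq2 and 2 to 5 on leaving out a library. ICAM1 was called there without quiescent library 1 (0.82 in RNA and 0.86 in footprints). Irradiated against cycling went from 2 to 4 with only the groups compared, where calls over all genes went from 4610 to 6723. Etoposide against cycling went from 5 to 3 with the replicate block and 3 to 5 on leaving out a library. Thapsigargin against cycling went from 9 to 5 with only the groups compared and 4 to 7 on leaving out a library. Irradiated against quiescent went from 2 to 4 with DESeq2 and 1 to 3 on leaving out a library. In footprints, irradiated against cycling went from 2 to 1 with no filter on low counts and 1 to 2 on leaving out a library. With only the groups compared it went to 6, and calls over all genes from 4655 to 6212. Irradiated against quiescent ranged from 1 to 4 and etoposide against quiescent from 3 to 5 on leaving out a library. Translational efficiency under thapsigargin ranged from 0 to 2. The BIRC3 difference in RNA after etoposide (-0.59, not called) was 0.0098 without cycling library 1, within a range of -1.01 to 0.0098 on leaving out a library.

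Apart from the cycling and quiescent Ribo-seq libraries, replicate numbers were not taken to pair the libraries compared. Deviations from the group means correlated above 0.1 in 9 of 23 same-numbered RNA pairs, against 13 of 44 with different numbers. In Ribo-seq they did so in 7 of 26 same-numbered pairs, cycling with quiescent included, against 5 of 52. Across the assays they did so in 6 of 13, among them all 3 of etoposide, against 2 of 24. The main fit of translational efficiency had no block for this. In quiescent against cycling footprints the replicate block left 6 of 7 calls, losing RELB, and it made no call on members in translational efficiency. 

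Counts over all genes moved by more than 1.5 times in these cases. With only the groups compared, RNA calls went from 2058 to 854 in quiescent against cycling and from 3248 to 1516 under thapsigargin, and footprint calls from 3993 to 5992 in etoposide against cycling and from 2533 to 4107 in etoposide against irradiated. Translational efficiency calls then went from 2 to 753 after irradiation, 5 to 27 after etoposide, 2425 to 1048 under thapsigargin and 0 to 603 between the senescent states. With DESeq2 these were 30, 39, 2878 and 6, and 6 in quiescence. No filter gave 2, 5 and 13 such calls in quiescence, irradiation and etoposide, all biotypes 2, 10 and 11, unstranded counts 1 and 6 in the first pair, and the block 9 after etoposide and 1 between the senescent states. Leaving out single libraries gave 700 to 2227 RNA calls in quiescent, 2764 to 3880 in irradiated, 2602 to 3985 in etoposide-treated and 1593 to 3396 in thapsigargin-treated against cycling cells, 1431 to 2793 in irradiated against quiescent and 1856 to 2301 in etoposide-treated against irradiated cells. Footprint calls were 1547 to 2818 (quiescent against cycling), 939 to 2417 (irradiated against quiescent) and 1492 to 1974 (etoposide against irradiated), and those of translational efficiency under thapsigargin 1534 to 3733. The shallow thapsigargin and irradiated Ribo-seq limits low genes such as BIRC3, and 2 libraries in a group leave little to judge its spread by.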
